A study of Mus musculus with 10 samples.

Results

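Apoa1, Apoa2, Apoc1, Ttr and Fabp1 encode carriers of lipid and hormone that the liver makes in bulk, and their intensities in mouse testis RNA stood highest in the pool taken 5 h after trichostatin A (TSA). The members were found by gene symbol in the platform's probe table, which gave 1 probe for each of the 5 genes among 9897 probes with values. They had been chosen because of their values in the 5 h pool, so their pattern over the pools is given as a description and carries no test. The series held testis RNA of 15 male BALB/c mice, 9 weeks old, in 5 groups of 3, with the RNA of a group pooled and each pool read on 2 CodeLink 1-channel arrays. The control mice received the carrier (dimethylsulfoxide and PBS) alone and were killed at 10 h. The TSA mice received 60 µg of TSA per mouse, an inhibitor of histone deacetylases, in a single subcutaneous injection, and were killed at 2.5, 5, 7.5 or 10 h. Each group was therefore 1 pool (n = 1) with duplicate technical arrays, and differences between animals were not measured. The 5 h pool differed from the control pool in hour of killing as well as in TSA, and these cannot be told apart.

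The 5 proteins carry water-insoluble cargo. Apolipoproteins coat lipoprotein particles and steer their traffic: apolipoprotein A-I is the main protein of high-density lipoprotein (HDL) and activates the enzyme that esterifies its cholesterol, apolipoprotein A-II is the other major HDL protein, and apolipoprotein C-I exchanges between particles and slows their uptake. Transthyretin carries thyroxine and the retinol-binding protein in plasma, and the liver fatty acid-binding protein Fabp1 shuttles fatty acids inside hepatocytes and enterocytes. In the testis, lipoprotein cholesterol feeds steroid synthesis in Leydig cells, and a blood-testis barrier keeps plasma proteins from the inner tubule.

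The labelled tissue was checked on markers. All 11 measured germ cell genes, 7 of 8 Sertoli genes and all 6 Leydig genes lay above the limit for dim probes, an average intensity of 0.207 that left 7422 probes. Their summed intensity in the 5 h pool was 670.3 to 690.2, 89.6 to 92.8 and 132.8 to 134.4, within or next to the range of the other 8 arrays (683.1 to 747, 87.4 to 99.5 and 120.7 to 157.4). Duplicate arrays correlated across probes with r from 0.995 to 0.998. In a bulk pool, fewer cells of a type and less RNA per cell cannot be told apart.

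Apoa1 (probe 7028, chromosome 9) read 28.5 on each 5 h array, against 0.0976 and 0.0513 on the control arrays, 0.218 and 0.214 at 2.5 h, 0.0708 and 0.096 at 7.5 h, and 0.096 and 0.133 at 10 h. It was the 534th and 536th brightest of the 9897 probes on the 5 h arrays, against the 8298th and 9066th place on the control arrays. The 5 h pool was at least 138-fold above the control. That bound takes the limit of 0.207 for the control, whose own reading was below it. At 2.5 h both arrays were above all 6 arrays of the control, 7.5 h and 10 h pools, while the arrays of the last 3 pools overlapped or touched.

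Apoa2 (probe 1173, chromosome 1) read 23.4 on each 5 h array, against 2.25 and 2.28 in the control, 3.13 and 3.21 at 2.5 h, 2.39 and 2.41 at 7.5 h, and 2.74 and 2.69 at 10 h. The 5 h pool was 10.4-fold above the control, a log2 fold of 3.37 ± 0.010 (the standard error covers only the spread of duplicate arrays, n = 1 pool each). Here the order from 5 h through 2.5, 10 and 7.5 h to the control held with no overlap between the arrays of neighbouring pools. Apoa2 was not dim outside the 5 h pool, since its control intensity of 2.26 was above the median of the probes kept, 1.99.

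Apoc1 (probe 722, chromosome 7) read 6.88 and 5.97 on the 5 h arrays, against 2.29 and 2.32 in the control, 4.49 and 3.82 at 2.5 h, 2.501 and 2.64 at 7.5 h, and 2.44 and 2.51 at 10 h. It had the smallest fold of the 5 genes at 5 h, 2.78 over the control (log2 1.47 ± 0.10). It also went against the description of being high at 5 h alone, because at 2.5 h it was already 1.79-fold above the control (log2 0.84 ± 0.12) and the 5 h pool was only 1.55-fold above the 2.5 h pool. The arrays at 7.5 and 10 h overlapped each other and lay just above the control.

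Ttr (probe 609, chromosome 18) read 18.4 and 19.6 on the 5 h arrays, against 0.122 and 0.0743 in the control, 0.118 and 0.192 at 2.5 h, 0.100 and 0.0334 at 7.5 h, and 0.0563 and 0.0551 at 10 h. The 5 h pool was at least 91.8-fold above the control, again with 0.207 as the control's bound. All 4 other pools were below that limit, and the arrays at 2.5 h overlapped those of the control.

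Fabp1 (probe 7341, chromosome 6) read 33.8 and 32.1 on the 5 h arrays, against 0.354 and 0.349 in the control, 0.628 and 0.529 at 2.5 h, 0.383 and 0.295 at 7.5 h, and 0.348 and 0.39 at 10 h. It was 93.6-fold above the control at 5 h (log2 6.55 ± 0.038) and 57.1-fold above the 2.5 h pool. The control, 7.5 h and 10 h arrays overlapped, while both 2.5 h arrays were above them.

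**Figure D1:**
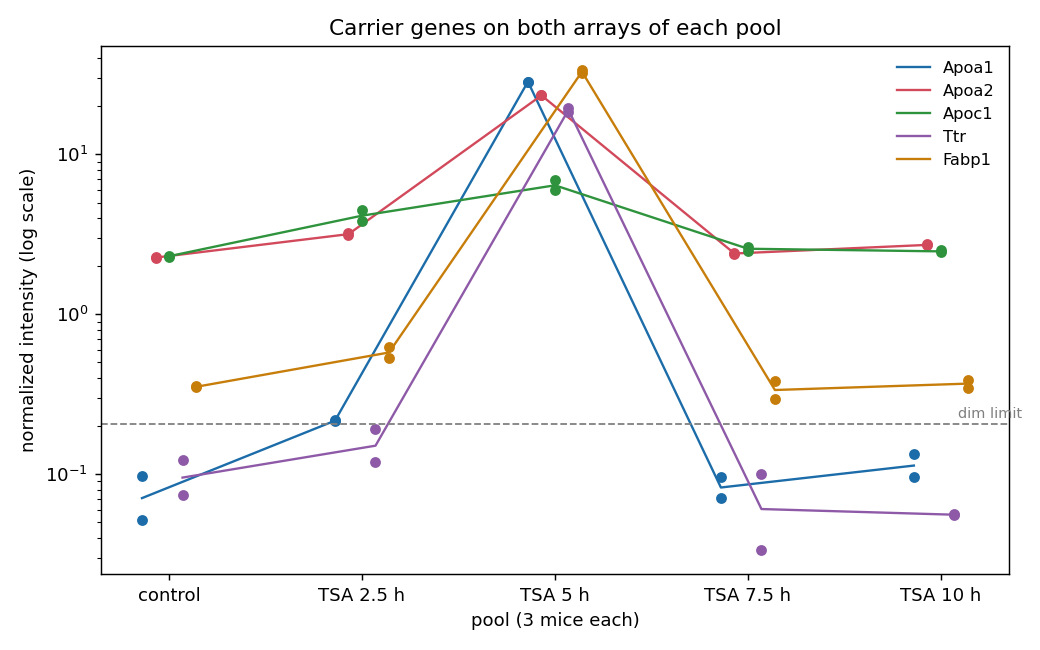
Normalized intensity of the 5 carrier genes on a log scale for each pool, with a point for each array, a line joining the pool means and the limit for dim probes dashed. All 5 genes peak in the 5 h pool, where pool means run from 6.41 to 32.9, and Apoc1 is raised at 2.5 h as well; the lines join separate mice.

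At 5 h all 5 genes met a size rule, which asked for a difference of 2-fold or more from the control pool and for no overlap between the arrays of the pools compared. Over the 7422 probes kept the rule called 90 higher (1.21%) and 25 lower (0.337%), and since the genes were chosen on this contrast nothing is read from the difference. The median log2 fold was 6.55 over the 5 genes and -0.03 over all probes kept. Apoa1, Ttr and Fabp1 had the largest folds of all probes kept. They were chosen on this contrast and the ranking depends on the limit for dim probes, so nothing is read from it. On the control's own readings the 3 genes were 403-, 200- and 93.6-fold above the control. Among probes left out as dim, probe 4088 (no gene symbol) was 383-fold above it and Apoc3 182-fold. The control readings of Apoa1, Ttr, Apoc3 and probe 4088 were under that limit. A stricter description asked for a 5 h mean at least 4-fold above every other pool, with both arrays above the other 8. Apoa1, Apoa2, Ttr and Fabp1 met it and Apoc1 did not, among 22 probes in all (0.296%). The same rule turned to other pools met 1 probe for the control (0.0135%, a probe with no gene symbol) and 0 probes for each of the 2.5, 7.5 and 10 h pools. Apoa1 and Ttr passed the limit on dim probes only through the 5 h pool, so they had to differ to be among the probes kept. Without either one of the 5 h arrays they dropped below it, which left 3 genes under the first rule and 2 under the second.

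**Figure D2:**
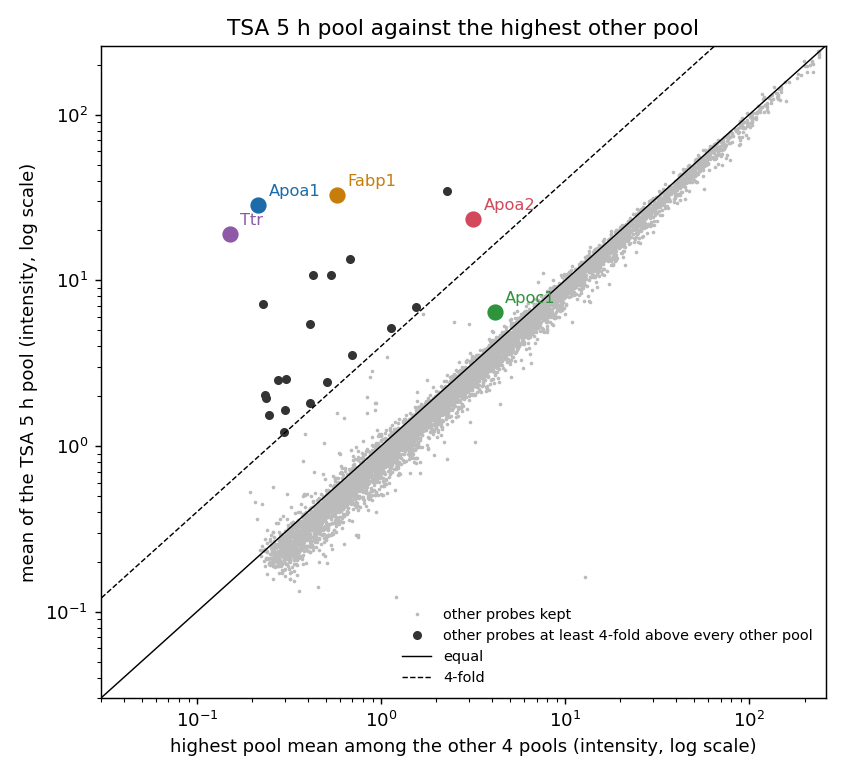
Mean intensity of the 5 h pool against the highest mean among the other 4 pools for 7422 probes, both axes logarithmic, with lines for equal values and for a 4-fold difference. Apoa1, Ttr, Fabp1 and Apoa2 lie above the 4-fold line with 18 other probes (dark), and Apoc1 lies between the lines.

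The 2.5 h pool was the highest of the other 4 pools for all 5 genes, and its arrays were above both control arrays for 4 of them, Ttr being the exception. Under the 2-fold rule only Apoa1 was called at 2.5 h (0.674% of probes kept were called higher and 0.243% lower), with a control reading below the dim limit. With 0.207 in place of that reading the 2.5 h pool was at least 1.04-fold above the control, short of the 2-fold that the rule asks for. As a share of the excess over the control at 5 h, the excess at 2.5 h was 0.691% for Fabp1, 4.31% for Apoa2 and 44.6% for Apoc1, while Apoa1 and Ttr, dim in the control, allow no such share. At 7.5 and 10 h none of the 5 met the rule in either direction, while among all probes kept the calls at 7.5 h came to 1.01% on the higher and 0.903% on the lower side, and those at 10 h to 1.23% and 1.44%. The log2 folds of Apoa2 and Apoc1 were 0.09 ± 0.011 and 0.16 ± 0.040 at 7.5 h, and 0.26 ± 0.016 and 0.10 ± 0.023 at 10 h. The comparisons at the 4 times share the control pool. Single arrays decided the dim calls: the number over the 3 times was 1 with all arrays and 3 without the first or the second control array, 2 without the first array at 2.5 h or at 7.5 h, and 0 without either 5 h array, every added call being Apoa1 or Ttr.

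The promoters of Apoa1, Apoa2 and Fabp1 are shown because these genes stood over 4-fold above every other pool together while lying on different chromosomes. Of the 5 genes, 3 matched RefSeq's promoter table (build GRCm38.p6), which gives 250 bases before and 50 after the start of a transcript. All 3 are on the plus strand, and Apoa2 is shown at both of its listed starts. The coordinates are RefSeq's, as no build is named for the array's probe table. Capitals mark matches, on either strand, to TATAAA, to GTTAAT, a partial site of the hepatic factor HNF1, to TTGCNNAA of the C/EBP family, to a direct repeat of TGNCCT with a single N between its copies, of the kind bound by PPAR and HNF4, and to CAAAGTCCA of HNF4.
Apoa1, chr9:46228380-46228679: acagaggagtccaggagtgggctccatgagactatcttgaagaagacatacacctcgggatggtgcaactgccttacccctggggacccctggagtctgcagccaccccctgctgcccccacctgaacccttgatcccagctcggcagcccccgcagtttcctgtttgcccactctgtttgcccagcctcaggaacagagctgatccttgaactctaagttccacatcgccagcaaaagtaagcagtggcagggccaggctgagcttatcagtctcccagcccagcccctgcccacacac
Apoa2, chr1:171221314-171221613: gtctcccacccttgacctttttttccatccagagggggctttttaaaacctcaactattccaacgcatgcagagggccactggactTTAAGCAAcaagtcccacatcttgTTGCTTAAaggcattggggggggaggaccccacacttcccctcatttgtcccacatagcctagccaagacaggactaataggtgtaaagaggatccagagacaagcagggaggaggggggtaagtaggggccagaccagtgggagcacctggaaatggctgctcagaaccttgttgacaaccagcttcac
Apoa2, chr1:171224804-171225103: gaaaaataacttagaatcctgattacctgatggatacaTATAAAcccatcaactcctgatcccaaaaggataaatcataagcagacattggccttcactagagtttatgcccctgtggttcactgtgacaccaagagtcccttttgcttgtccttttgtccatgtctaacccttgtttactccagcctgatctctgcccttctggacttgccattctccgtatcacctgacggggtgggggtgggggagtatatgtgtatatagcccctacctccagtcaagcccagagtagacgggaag
Fabp1, chr6:71199629-71199928: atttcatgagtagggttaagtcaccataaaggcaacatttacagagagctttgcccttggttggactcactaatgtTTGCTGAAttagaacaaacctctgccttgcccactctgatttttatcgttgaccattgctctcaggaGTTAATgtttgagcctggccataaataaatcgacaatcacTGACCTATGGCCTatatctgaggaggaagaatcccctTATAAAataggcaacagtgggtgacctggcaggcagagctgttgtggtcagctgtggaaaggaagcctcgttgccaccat
Fabp1 held TATAAA at base -30 from its start, tgacctatggcct at base -67, GTTAAT at base -107 and a C/EBP match at base -174. Apoa2 held C/EBP matches at bases -140 and -164 from its first listed start and TATAAA at base -212 from the other, and Apoa1 held no match to these letters. Among the 32851 promoters of the table, 13.6% held TATAAA, 7.1% GTTAAT, 10.8% TTGCNNAA, 0.381% the direct repeat and 0.475% CAAAGTCCA. The matches overlap no other match and describe these windows only.

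A pair of the genes lies in apolipoprotein clusters, and the other genes of those clusters, named for their place after their values were seen, had profiles of more than one kind. In RefSeq's order Apoa1 is followed on chromosome 9 by Apoc3, an inhibitor of triglyceride clearance, Apoa4, an apolipoprotein of intestine and liver, and Apoa5, an activator of triglyceride clearance. Apoc3 had a pool mean of 6.64 at 5 h, against 0.0364 in the control, 0.0528 at 2.5 h, 0.0465 at 7.5 h and 0.0364 at 10 h. It was thus at least 32.1-fold above the other pools, although dimness elsewhere kept it out of the probes compared. Apoa4 read 0.154 at 5 h and stayed under the dim limit in all pools, and Apoa5 read 1.07 at 5 h, against 0.475 in the control (log2 1.18 ± 0.008) and 0.795 at 7.5 h. Of the genes just outside the cluster, Pafah1b2 had a 5 h log2 fold of 0.01 and Zpr1 one of -0.59.

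On chromosome 7, Apoc2, Apoc4, Apoc1 and Apoe lie side by side. Apoe, the ligand by which remnant particles bind their receptors, had pool means of 10.1 at 5 h, against 4.99 in the control, 8.62 at 2.5 h, 5.41 at 7.5 h and 5.07 at 10 h. Its log2 folds over the control, 0.79 at 2.5 h and 1.02 at 5 h, stood beside 0.84 and 1.47 for Apoc1. Apoc2, the activator of lipoprotein lipase, instead read 1.95 at 5 h, against 0.237 in the control, 0.232 at 2.5 h, 0.194 at 7.5 h and 0.229 at 10 h, which is 8.24-fold above the highest other pool. Apoc4 read 0.929 at 5 h and was below the dim limit in the other pools. The neighbouring genes Tomm40 and Clptm1 had 5 h log2 folds of -0.33 and -0.68.

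**Figure D3:**
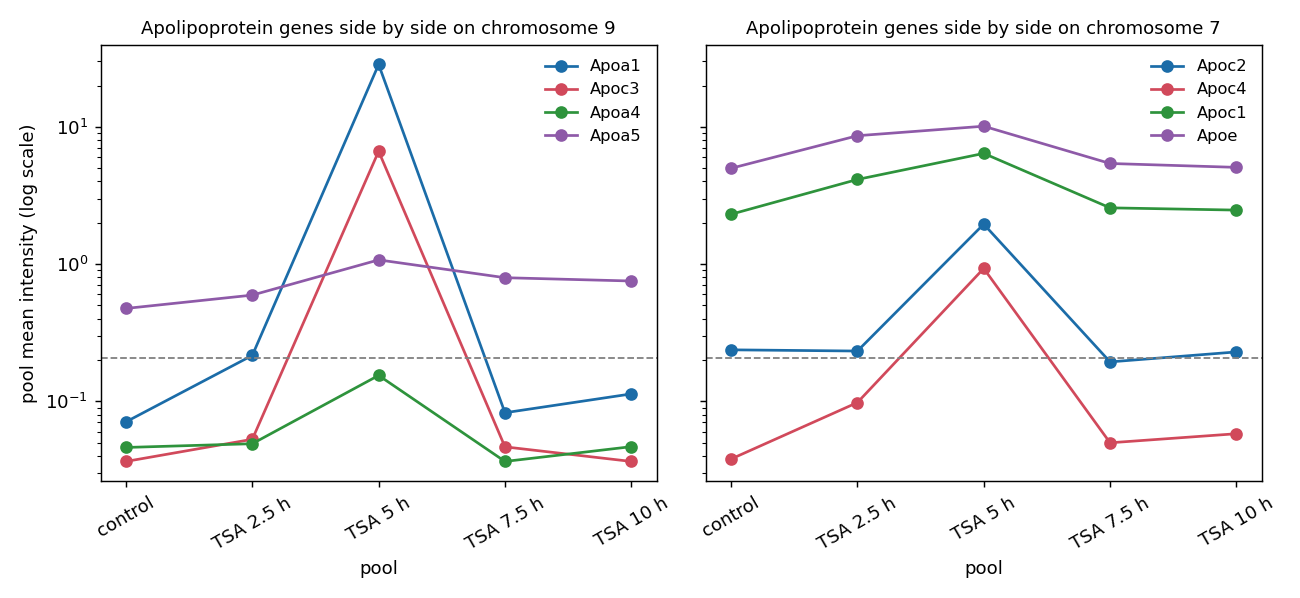
Pool means on a log scale for the apolipoprotein genes that lie side by side with Apoa1 (chromosome 9, left) and with Apoc1 (chromosome 7, right), the dim limit dashed. Apoa1, Apoc3, Apoc2 and Apoc4 peak at 5 h alone, while Apoc1 and Apoe are raised at 2.5 and 5 h.

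Lists of related genes put the 5 carriers beside others of their kind. A gene of a list could pass the dim limit through its 5 h level, so the counts describe the probes kept and support nothing. Of 16 apolipoproteins measured 9 were kept, of which 7 were called higher at 5 h and 0 lower; leaving out the 3 members, 4 of 6 were (Apoa5, Apoc2, Apoe and Saa1), with a median log2 fold of 1.10 beside -0.03 for all probes kept. Clu, a secreted chaperone that Sertoli cells make in quantity, and Apoh stood at log2 folds of 0.13 ± 0.16 and 0.58 ± 0.13. Among cellular lipid carriers (9 of 14 measured kept) the call went to Fabp1 and to 0 of the 8 others kept. The share called higher over all probes kept was 1.21%, so 0 of 8 says little. Fabp9, the lipid-binding protein of sperm, read 103 at 5 h, against 98 in the control, and Fabp3, of muscle and other tissues, read 29.6 at 5 h, against 20.9 in the control (log2 0.50 ± 0.14). Fabp3 was also above the control in the other TSA pools, at 33.1 at 2.5 h, 26.7 at 7.5 h and 30.2 at 10 h. The 8 had a median log2 fold of 0.35.

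Of 17 plasma carriers measured 9 were kept and 7 were called higher at 5 h and 0 lower, beside 1.21% higher and 0.337% lower over all probes kept. Without Ttr 6 of 8 were, and these 8 had a median log2 fold of 2.23. Rbp4, the retinol carrier that travels with transthyretin, read 6.92 at 5 h, against 1.45 in the control. Trf, the iron carrier transferrin, read 5.17 at 5 h, against 1.13 in the control, and Hpx, which binds haem, read 3.55 at 5 h, against 0.500 in the control. Ahsg, or fetuin-A, read 10.8 at 5 h, against 0.299 in the control, and Orm1, an acute phase carrier of drugs and steroids, read 2.03 at 5 h, against 0.0982 in the control. These carriers of other cargo met the 4-fold rule for the 5 h pool alone. Shbg, the carrier of sex steroids, and Selenop, the selenium carrier, did not, with 5 h log2 folds of -0.42 ± 0.098 and 0.15 ± 0.037.

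Of the enzymes and receptors of lipoprotein traffic 13 of 19 measured were kept, 3 were called higher at 5 h and 0 lower, and the median log2 fold was -0.08. Over all probes kept, 1.21% were called higher and 0.337% lower. The 3 were Lcat, the plasma enzyme that apolipoprotein A-I activates (log2 1.22 ± 0.048), and the acyl-CoA synthetases Slc27a2 (2.45 ± 0.11) and Slc27a5 (1.75 ± 0.15). Sort1, a sorting receptor, and Scarb1, the HDL receptor that Leydig cells use, had log2 folds of -0.12 ± 0.035 and -0.25 ± 0.16.

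Of 27 hepatic enzymes measured 18 were kept, of which 7 were called higher at 5 h and 0 lower, with a median log2 fold of 0.54. Among the 7, Arg1 had a control reading of 0.161, under the dim limit of 0.207. Its 5 h reading of 0.342 was short of 2-fold above that limit. Cyp2e1, a cytochrome P450 of the liver, read 13.5 at 5 h, against 0.394 in the control. Fbp1, of gluconeogenesis, and Aldh1a1, which makes retinoic acid, were bright in every pool (Fbp1 at 103 in the 5 h pool, against 126 in the control, and Aldh1a1 at 94.5, against 77.1) and had log2 folds of -0.29 ± 0.057 and 0.29 ± 0.051. Regulators of hepatic transcription gave 0 calls in 12 kept of 20 measured, beside 1.21% higher and 0.337% lower over all probes kept. At those shares 0 in 12 says little, and the regulators had a median log2 fold of 0.28. The brightest of them, Nr2f2, Cebpd, Rxra, Foxa1, Nr1h3 and Esrra, had 5 h log2 folds of 0.26, 0.45, 0.29, 0.43, 0.47 and 0.12. Each of these had its highest pool mean at another time after TSA, and the median log2 fold of the regulators was 0.47 at 10 h. Hnf4a, a nuclear receptor that drives many apolipoprotein genes in liver and was picked here after its values were seen, read 0.385 at 5 h, against 0.331 in the control (log2 0.22 ± 0.28). At the other times these 6 lists, the 5 genes aside, gave 0 calls at 2.5 and 7.5 h and 2 at 10 h. Those were Orm1 and the glucose-6-phosphatase gene G6pc, both higher. Over all probes kept, 0.674% were called higher and 0.243% lower at 2.5 h, 1.01% and 0.903% at 7.5 h, and 1.23% and 1.44% at 10 h. The control readings of Orm1 and G6pc, 0.0982 and 0.199, were under the dim limit of 0.207. At 10 h Orm1 read 0.236, short of 2-fold above that limit, and G6pc read 0.436, over 2-fold above it.

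**Figure D4:**
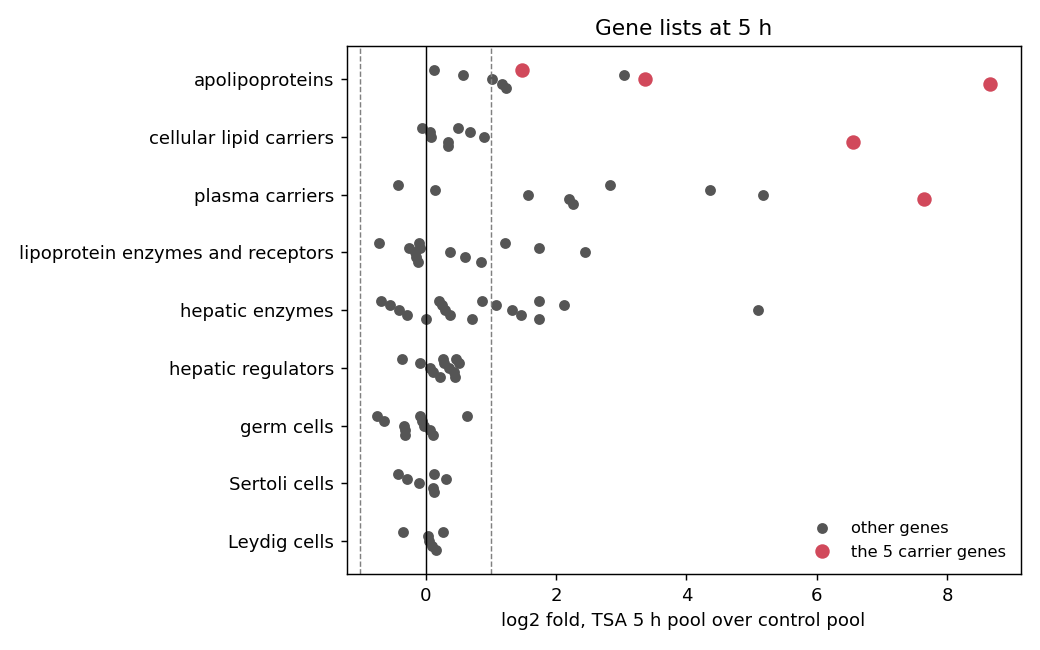
Log2 fold of the 5 h pool over the control pool for the genes kept in 9 lists, a point per gene, with the 5 carrier genes in red and dashed lines at 2-fold. Carriers and some hepatic enzymes extend to the right, while hepatic regulators and testis cell genes stay between the dashed lines.

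The genes most like the 5 in profile were sought among the 22 probes that met the 4-fold rule, by Pearson's r of log2 pool means over the 5 pools with the members' mean profile. The first 10 were Rbp4, Cyp2e1, Apoc2, Ahsg, Serpina1e, Vtn, Serpina1b, Slc27a2, Fgb and Serpina1d, with r from 0.976 to 0.990. The r values rest on 1 high pool, and the points share their arrays and labelling. The 3 Serpina1 probes read near-identical antitrypsin genes, which a probe may not separate. Vtn, or vitronectin, read 2.55 at 5 h, against 0.28 in the control, and Fgb, the fibrinogen beta chain, 10.7 at 5 h, against 0.356 in the control. Just inside the 4-fold limit stood Pcbd1 at 4.11-fold above the highest other pool, and just outside it Cyp2f2 at 3.72-fold.

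The list of hepatocyte markers holds all 5 genes, so it is given without them. Of the other 5 measured 4 were kept, and 3 (Serpina1b, Cyp2e1 and Arg1) were called higher at 5 h, with a median log2 fold of 2.58 over the 4. The call of Arg1 rested on a control reading of 0.161, under the dim limit of 0.207. Its 5 h reading of 0.342 was short of 2-fold above that limit. The summed intensity of these 5 (Serpina1b, Ass1, Arg1, Cyp2e1 and Hpd) was 63.8 to 64.1 on the 5 h arrays, against 14.4 to 19.4 on the other 8. Ass1, which the testis also expresses, was 15.2 at 5 h, against 12.8 in the control. Summed intensity of 9 enterocyte markers was 6.13 to 6.2 at 5 h, against 5.04 to 5.99 on the other arrays, with 0 calls in 3 kept. Most of it came from Cdh17, with Fabp2 at 0.51 at 5 h, against 0.054 in the control, Vil1 at 0.249, against 0.16, and Slc5a1 at 0.0520, against 0.0461. Fabp2 was left out as dim, and with no such limit it met the 4-fold rule for the 5 h pool alone. With 0.207 in place of its highest other pool, the 5 h pool was at least 2.46-fold above it. The choroid plexus markers measured, Folr1 and Otx2, summed to 2.52 to 2.69 at 5 h, against 2.46 to 3.4 elsewhere. Markers of kidney (3 kept of 9 measured), pancreas (1 of 6) and blood (4 of 6) gave 0 calls at 5 h. So did those of adipose tissue (5 of 6), skeletal muscle (5 of 11) and epididymis (2 of 7). Over all probes kept, 1.21% were called higher at 5 h and 0.337% lower, so 0 calls in such short lists says little. Sums of these lists over the measured genes, in the same order, were at most 1.72, 0.653, 35.7, 11.6, 3.67 and 10.3 on the 5 h arrays, against a highest other array of 2.18, 0.773, 39.1, 12.9, 4.18 and 9.98. Haemoglobin Hba-a1 read 17.5 at 5 h, against 17.5 in the control. Whether RNA of another tissue took part in the 5 h values was not tested.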

How the data were processed

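Testis RNA pools of 3 mice were read on CodeLink Expression 1-channel arrays (Cy5), per the labels. The deposited values were normalised probe intensity (linear scale, median 1.00). Once sorted, the 10 arrays held the same values, so the authors had quantile normalised them. For the scanner software, the background correction and the normalisation program, the sources used here give nothing. Of 10012 probes, 115 had no value. The platform table gave 8983 probes 1 symbol, 1 several and 1028 none, and 8975 of its rows matched a RefSeq gene by identifier.

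Values under the 5th percentile (0.0364) were raised to it, turned to log2 and shifted to a common median per array, and the dimmest 25% by mean were left out (limit 0.207). Bounds on folds set a pool below that limit to the limit. No p-value was computed, since each group is 1 pool and the genes were chosen on their values. Size rules were 2-fold over control and 4-fold above every other pool, as stated in the report, and both were tested on simulated data. Arrays have no counting depth, and their number limits the precision. A replicate is a second array of the same RNA.

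The members and lists were chosen with earlier results of these data known. Named were the members, up to 6 genes per list that met the 4-fold rule by 5 h level and up to 2 that did not by level, up to 6 hepatic regulators by level, the 10 most alike, and up to 3 markers per other list by level. Other genes were named after their values were seen. Lists used 1 probe a gene. Alternatives changed the floor, offset (0.25), array scaling, filter, fold sizes and arrays. Python 3.11.15, pandas 2.3.3 and matplotlib 3.10.9 were used.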

Additional observations from a re-analysis of the deposited data

Results flagged for a closer look

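Ttr stood above the control in the 5 h pool and below it in the 10 h pool, with both 10 h arrays (0.0563 and 0.0551) under both control arrays (0.122 and 0.0743), a log2 fold of -0.77 ± 0.36. All 4 of these readings were under the dim limit of 0.207, and the difference between the times was not tested.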

How the results depend on the processing

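The log2 folds of the 5 genes at 5 h over the control kept their direction under the alternatives run, from 6.47 to 9.12 for Apoa1, 3.24 to 3.38 for Apoa2, 1.36 to 1.59 for Apoc1, 5.79 to 8.04 for Ttr and 5.78 to 6.59 for Fabp1, with the lowest values of Apoa1, Apoa2, Ttr and Fabp1 under an offset before the logarithm. With the lowest 50% of probes left out, 2 of the 5 genes were kept, so that 2 in place of 5 were called higher at 5 h, 1 in place of 4 stood 4-fold above every other pool, and 0 in place of 1 was called at 2.5, 7.5 and 10 h, as was also the case with the offset (0). Leaving out arrays gave 3 to 5 genes, 2 to 4 genes and 0 to 4 calls for these 3 counts. Over all probes, the 90 called higher at 5 h became 57 with the offset, 221 with no filter, 22 with the lowest 50% left out and 38 with a 3-fold rule, and 86 to 104 with arrays left out. The 22 probes that stood 4-fold above every other pool became 67 with no filter, 5 with the lowest 50% left out, 13 with an 8-fold rule, and 18 to 24 with arrays left out. The filter and fold counts follow from fewer or more probes tested or passing; the cause of the change under the offset was not tested. No paired analysis was possible because each pool held different mice, and the numbers of the duplicate arrays mark technical readings of 1 pool. The limit of 0.207 is the cut of the filter and not a measured background, and folds that rest on readings below it are uncertain. Apoa1 was below it in 3 pools and Ttr in 4.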

Other observations

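With no limit on dim probes, 67 probes stood at least 4-fold above every other pool at 5 h, and the same count was 3 for the control, 0 for 2.5 h, 4 for 7.5 h and 0 for 10 h. Of the 45 probes that the limit had left out at 5 h, 11 belonged to genes of the lists: Apoc3, Apoc4 and Apom among apolipoproteins, Fabp2 among cellular lipid carriers, Hp and Fetub among plasma carriers, and Hpd, Mat1a, Otc, Pck1 and Tdo2 among hepatic enzymes. Fabp2 is also on the list of enterocyte markers, and Hpd on that of hepatocyte markers. Hp, which encodes the haemoglobin scavenger haptoglobin, read 3.55 at 5 h, against 0.0444 in the control, and Pck1, the entry enzyme of gluconeogenesis, read 3.52 at 5 h, against 0.107 in the control. Apom, an HDL apolipoprotein that carries a sphingolipid signal, read 0.804 at 5 h, against 0.0990 in the control. These genes were named after their values were seen.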
